A study of Mus musculus with 24 samples.

Results

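Hepcidin and the genes that set liver iron handling were followed across control and E2F7/E2F8-deficient mouse livers before and after an acetaminophen (APAP) overdose. The 10 genes, taken by symbol from the 24411 genes in the deposited counts, were the hepcidin genes *Hamp* and *Hamp2*, the ligand gene *Bmp6*, the BMP-SMAD target genes *Id1* and *Smad7*, the ferritin genes *Fth1* and *Ftl1*, the iron exporter gene *Slc40a1*, the transferrin receptor gene *Tfrc* and the transferrin gene *Trf*. All 10 passed the filter on low counts in every comparison.

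Hepcidin is a peptide hormone secreted by hepatocytes that binds ferroportin, the iron exporter encoded by *Slc40a1*, and causes its degradation. Its transcription rises when BMP6 from sinusoidal endothelial cells activates SMAD proteins in hepatocytes, and also when interleukin-6 activates STAT3. Inside cells, iron regulatory proteins bind iron-responsive elements (IREs), hairpins in mRNA that block translation from the 5′ UTR of ferritin and ferroportin mRNA and stabilize transferrin receptor mRNA from the 3′ UTR.

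Poly(A) RNA of whole liver from male mice aged 2.5 months was sequenced in 24 libraries. The LKO cohort carried floxed *E2f7* and *E2f8* alleles and the R26R-mTmG reporter on a mixed, predominantly FVB background. Its knockout (LKO) also carried Alb-Cre, which is active in the hepatocyte lineage from development on, whereas littermate controls had the floxed alleles and reporter without Cre. In the HKO cohort, floxed mice received AAV8-TBG-Cre, in which a hepatocyte promoter drives Cre, or AAV8-TBG-Null as control, at 2 months of age. At 0 h the mice had been fasted for about 16 h and received no APAP, and 4 control, 4 LKO, 3 AAV8-TBG-Null control and 3 HKO mice gave 1 library each. For 12, 24, 48, 72 and 96 h after 300 mg/kg APAP, RNA of 3 mice was pooled into 1 library per genotype of the LKO cohort and time. A pool hides the spread between its mice. Differences at 1 time point therefore had no replicate check, and APAP, its injection and the time since the shared fast cannot be told apart in a comparison with 0 h.

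Reads on genes ranged from 12665686 to 19499897 per library, and 3 counts, taken as the lowest level that can be read, correspond to 0.154 to 0.237 CPM (counts scaled to library size). That limit covers counting error only. The deposited *E2f8* count covers the whole gene, including exons outside the deleted part, and does not check the deletion. It was higher in the mice labelled as knockouts, at 320 to 592 counts in the 4 mice labelled LKO against 189 to 320 in their controls, and at 464 to 1310 counts in the 3 mice labelled HKO against 235 to 382. *E2f7* had 22 counts or fewer in every mouse at 0 h. LKO and HKO below therefore mean libraries with that label. The hepatocyte markers (6 of 6 genes) summed to 42300 to 126000 CPM in the LKO cohort and 60400 to 89600 CPM in the HKO cohort, so the tissue label held. In whole liver, fewer cells of a type and less RNA per cell cannot be told apart.

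The regulatory sequences that the gene list turns on are printed first, because *Hamp2* is a near-copy of *Hamp*, and because the IREs mark which iron genes share a sensor. *Hamp* lies on chromosome 7 from 30942368 to 30944032 and *Hamp2* on the same chromosome and strand from 30922372 to 30924681 (GRCm38, GENCODE vM21). Both are protein-coding genes on the minus strand. Their promoters agreed at 276 of 297 aligned bases (92.9%) and their transcripts at 388 of 410 (94.6%). Of all 50-base stretches of the *Hamp* transcript, 16.6% also occur in *Hamp2*, and of all 100-base stretches 0%. Reads from shared stretches fit both genes and may be left out or misplaced, so both levels carry that uncertainty. The stretches of RefSeq promoter sequence (GRCm38.p6) from 130 to 71 bases before the start, at chr7:30944100-30944159 and chr7:30924252-30924311 on the minus strand, are shown with 2 motifs in capitals. The motifs searched on both strands were GGCGCC, the core of the BMP-responsive element, and TTCNNNGAA, the STAT motif.
Hamp: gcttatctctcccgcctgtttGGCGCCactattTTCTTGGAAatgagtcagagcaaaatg
Hamp2: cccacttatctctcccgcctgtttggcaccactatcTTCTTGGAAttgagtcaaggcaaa

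The *Hamp* promoter held GGCGCC starting 109 bases before the start and TTCTTGGAA starting 97 bases before it. The *Hamp2* promoter held TTCTTGGAA starting 94 bases before the start, and in place of GGCGCC it had the same letters with the difference G4A, counted from the first base of the motif. Of 32851 promoter windows from 250 bases before to 50 bases after a start, 11.9% held GGCGCC, 8.30% held TTCNNNGAA and 0.645% held both. Of the 6 listed genes with a RefSeq promoter entry, *Tfrc* was the other one with GGCGCC, 89 bases before its start. A match describes the letters of the window and is not a measured binding site. The part of these letters in the levels of the genes was not tested.

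Hairpins of the IRE form were searched in the UTRs of the GENCODE vM21 transcripts, as a C, 5 bases, the loop CAGTGN and 5 bases that pair with the first 5. They occurred in 4 of the 10 genes. Of genes with an annotated 5′ UTR 0.148% had a match there, and of genes with a 3′ UTR 0.595%. *Tfrc* had 4 sites in its 3′ UTR on the plus strand of chromosome 16, and *Fth1*, *Ftl1* and *Slc40a1* had 1 each in the 5′ UTR. They are shown with 6 flanking bases and the loop in capitals.
Tfrc, chr16:32631219-32631247: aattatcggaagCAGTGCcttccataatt
Tfrc, chr16:32631598-32631626: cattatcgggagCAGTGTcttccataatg
Tfrc, chr16:32631663-32631691: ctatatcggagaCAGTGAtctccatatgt
Tfrc, chr16:32631710-32631738: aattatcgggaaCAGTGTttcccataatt
Fth1, chr19:9982732-9982760, plus strand: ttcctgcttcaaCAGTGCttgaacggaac
Ftl1, chr7:45459779-45459807, minus strand: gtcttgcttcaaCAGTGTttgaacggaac
Slc40a1, chr1:45925465-45925493, minus strand: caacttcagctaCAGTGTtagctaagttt

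Per exon length, the 10 genes spanned more than 3 orders of magnitude in the 4 control mice at 0 h. Transferrin, the plasma iron carrier that hepatocytes secrete, led with a mean of 4790 RPKM (reads per kilobase of exon, scaled to library size like the CPM), followed by *Ftl1* at 3380 RPKM and *Hamp* at 2240 RPKM. The *Hamp* mice, at 861 to 3850 RPKM, overlapped with those of *Ftl1*, at 2400 to 4350 RPKM, which in turn all lay below the 4400 to 5180 RPKM of *Trf*. *Fth1*, at 378 RPKM, stood below them without overlap, and *Hamp2* averaged 39.5 RPKM, overlapping with *Slc40a1* at 19.4 RPKM. The exon length joins the exons of all annotated transcripts, 3469 bases over 9 transcripts for *Fth1* and 9000 over 8 for *Slc40a1*. A gene whose main transcript is shorter than this reads too low, so the ranks between genes carry that uncertainty. *Id1*, *Tfrc*, *Smad7* and *Bmp6* were the low genes, with means of 7.38, 3.67, 3.36 and 1.40 RPKM, and the ranges of *Id1*, *Tfrc* and *Smad7* overlapped. In GENCODE vM21 *Gm20425*, which the deposited counts do not list, covers 63.5% of the exon length of *Trf* on the same strand. *Txndc5*, on the opposite strand, overlaps 5.74% of the exon length of *Bmp6*, and the counts disregard strand. Noncoding genes that the counts do not list either overlap 26.5% of the exon length of *Ftl1* and 15.3% of that of *Hamp2* on the opposite strand.

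Before APAP, *E2f7/E2f8* deletion in the LKO mice was compared with controls to ask whether iron regulation already differed. No gene of the list passed the edgeR test at 0 h, and none of all 12426 genes tested did (0%, with 352 at an unadjusted p under 0.05). Among the 10 genes 0 were called by DESeq2 as well, and the lowest unadjusted edgeR p was 0.1921. The hepcidin genes varied widely between mice of 1 genotype. *Hamp* was at 1580, 814, 353 and 925 CPM in controls and at 143, 588, 863 and 1300 CPM in LKO mice. The groups overlapped, and the lowest LKO mouse lay below all others. The means were 919 ± 507 and 724 ± 486 CPM (SD, n = 4), with a log2 fold change of -0.34 (SE 0.56, adjusted p = 0.9992).

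*Hamp2* was at 14.4, 12.5, 7.16 and 57.9 CPM in controls and at 10.1, 51.0, 42.1 and 68.1 CPM in LKO mice. Here 3 of 4 LKO mice exceeded 3 of 4 controls, but the groups overlapped. The log2 fold change was 0.90 (SE 0.65, adjusted p = 0.9992). As a share of the reads of both hepcidin genes, *Hamp2* took 0.902% to 5.89% in controls and 4.65% to 7.97% in LKO mice. Among the 10 genes, these differences were largest for *Hamp2* and *Id1*, whose mRNA encodes an inhibitor of basic helix-loop-helix factors. *Id1* was at 9.15, 7.73, 3.03 and 14.3 CPM in controls and at 3.37, 8.00, 4.78 and 7.04 CPM in LKO mice, a log2 fold change of -0.56 (SE 0.40, adjusted p = 0.9992). The other 7 genes ranged from -0.17 for *Trf* to 0.15 for *Slc40a1* on the log2 scale. All 10 genes overlapped between the groups.

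The within-group spread at 0 h set the size of a difference that could be seen. Over all 14 mice, *Hamp* had a within-group SD of 0.95 on the log2 scale, above 97.8% of the 12945 genes, whose median was 0.27. *Hamp2* (SD 1.13) and *Id1* (SD 0.81) stood at 98.8% and 95.7%. *Trf* and *Fth1* were the steadiest, at SDs of 0.14 and 0.17. Across the 14 mice *Hamp* spanned an 11.1-fold range and *Trf* a 1.73-fold range.

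In the HKO cohort, deletion came in adult hepatocytes, and again no gene of the list passed the test, against 119 of 12397 genes tested (0.96%). DESeq2 called 0 of the 10 too, and their lowest unadjusted edgeR p was 0.1207. *Hamp* was at 489, 299 and 624 CPM in AAV8-TBG-Null controls and at 655, 404 and 456 CPM in HKO mice. These overlapping values gave means of 471 ± 163 and 505 ± 133 CPM (SD, n = 3) and a log2 fold change of 0.10 (SE 0.26, adjusted p = 0.9196). *Bmp6* was at 3.56, 3.52 and 4.36 CPM in controls and at 4.30, 4.77 and 5.93 CPM in HKO mice. That was a log2 fold change of 0.39 (SE 0.23, adjusted p = 0.5503), and the groups overlapped by 1 mouse. *Id1* was at 4.85, 4.90 and 4.36 CPM in controls and at 12.7, 3.69 and 2.31 CPM in HKO mice, with 1 HKO mouse above and the other two below all controls. How far the LKO effect differed from the HKO effect was tested too, and this was not called for any of the 10 genes or of all 12945 genes tested (0%, with 579 at an unadjusted p under 0.05). DESeq2 called 0 of the 10 here as well, and their lowest unadjusted edgeR p was 0.1242. The fitted difference was largest for *Id1*, at -0.97 (SE 0.73, adjusted p = 0.9998), and for *Hamp2*, at 0.93 (SE 0.99, adjusted p = 0.9998). The cohorts also differ in virus and age at deletion. Per the paper, LKO hepatocytes are mostly diploid, while hepatocytes of control and HKO mice are mostly polyploid. The deletion and the change in ploidy cannot be told apart in LKO mice.

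The wide spread of *Hamp* at 0 h allowed its relation with the other genes to be examined over the 14 single mice, as log2 deviations from the mean of the own group. *Ftl1* and *Bmp6* had the highest correlation with *Hamp* (Pearson r = 0.67 for both, Spearman's rho = 0.64 for both), and *Tfrc* had a negative one (r = -0.65, rho = -0.45). None of the 9 relations passed after adjustment. By an exact 2-sided permutation of mice within groups, p for r was 0.02696 for *Ftl1*, 0.03202 for *Bmp6* and 0.03824 for *Tfrc*. The Benjamini-Hochberg adjusted values over the 9 relations were 0.08604 for each of these, and for rho the exact p was 0.03569, 0.05295 and 0.1649, adjusted to 0.114, 0.114 and 0.2278. *Id1* had r = 0.57 and rho = 0.55 (exact permutation p = 0.02416 and 0.06284, adjusted 0.08604 and 0.114). Without the 2 mice farthest from the median, the lowest LKO mouse and the lowest control mouse, r fell to 0.49 for *Ftl1* and *Bmp6*, 0.29 for *Id1* and -0.24 for *Tfrc*, so all 4 depended in part on those mice. They were also the 2 shallowest libraries of the 24, at 13671993 and 12665686 reads on genes, and the LKO mouse had the lowest *Alb* (26400 CPM) and the highest *Saa1* (676 CPM) and *Lcn2* (33.1 CPM) of the 4 LKO mice. The part of these differences in the relations was not tested.

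Within cohorts, r with *Hamp* for *Ftl1* was 0.68 over the 8 LKO-cohort mice and 0.70 over the 6 HKO-cohort mice. For *Bmp6* it was 0.79 and 0.13, for *Tfrc* -0.73 and -0.49, and for *Id1* 0.69 and 0.44. *Slc40a1* and *Hamp2* differed in sign between cohorts, at 0.79 and -0.20 and at 0.74 and -0.17. *Smad7* gave 0.48 and 0.70, *Fth1* 0.49 and 0.38, and *Trf* 0.24 and -0.04. Over all 14 mice r was 0.65 for *Slc40a1*, 0.58 for *Hamp2*, 0.49 for *Smad7*, 0.45 for *Fth1* and 0.12 for *Trf*, none below an adjusted p of 0.1092 in the exact permutation test. Without the same 2 mice these fell to 0.30, 0.11, 0.33, 0.24 and -0.02 in the same order.

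**Figure D1:**
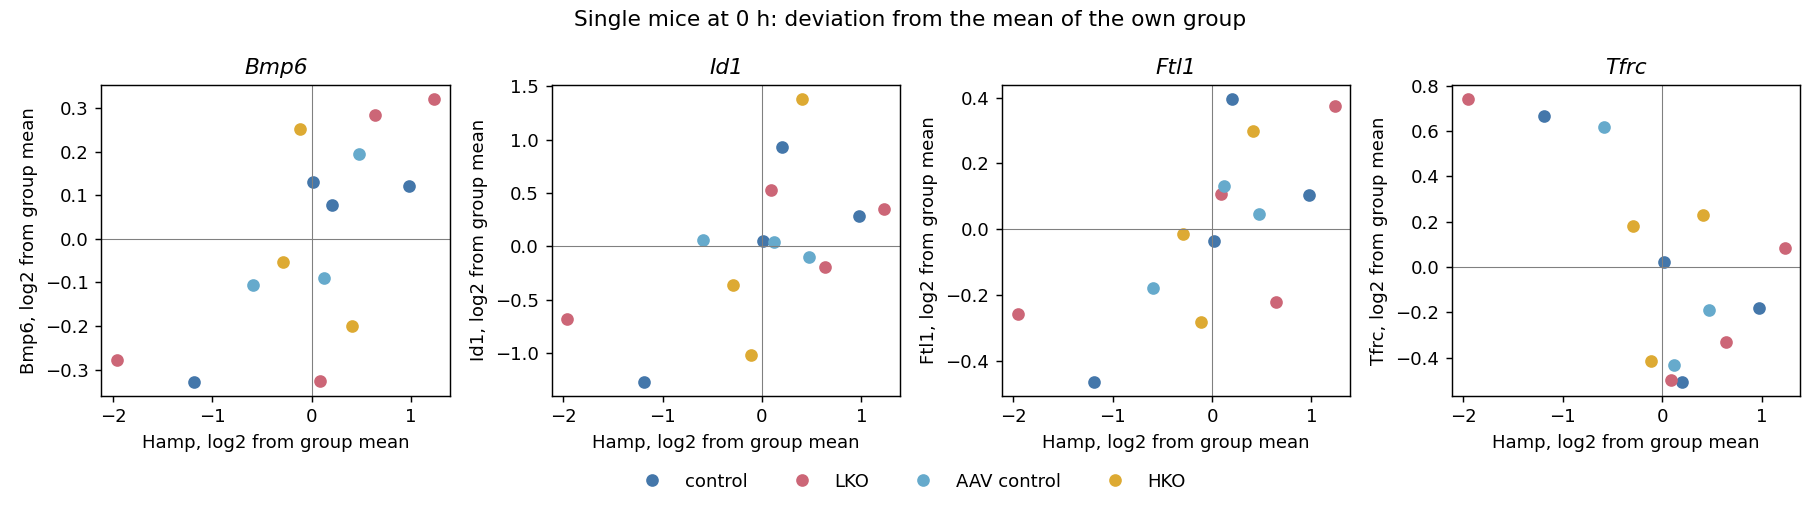
Deviation of *Bmp6*, *Id1*, *Ftl1* and *Tfrc* (vertical axes) and of *Hamp* (horizontal axes) from the mean of the own group, in log2 CPM, with 1 point per mouse at 0 h colored by group. The lowest LKO mouse and the lowest control mouse, at -1.96 and -1.19 for *Hamp*, stand apart at the left of each panel, low in *Bmp6*, *Id1* and *Ftl1* and high in *Tfrc*.

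After APAP, the iron genes were compared with 0 h by setting the control and LKO pools of a time against the 8 single mice of the LKO cohort, with the genotype in the fit. The 5 time points share those 8 mice and are not independent. At 12 h, 8 of the 10 genes were called, 5 higher and 3 lower, against 31% of all 13855 genes tested (2320 higher and 1979 lower). The 24 h pools gave 5 called genes (25.6% of all genes tested), those of 48 h gave 1 (16.4%), and those of 72 h gave 1 (16.8%). For 96 h the count was 0 (0.462%, or 64 genes, of all), and the lowest unadjusted edgeR p among the 10 genes was 0.05275, for *Bmp6*. By DESeq2 the same comparisons gave 7, 5, 3, 1 and 0 of the 10 genes. The median log2 fold change of the 10 genes was 0.90 at 12 h, 0.36 at 24 h and 48 h, 0.11 at 72 h and 0.16 at 96 h, while that of all genes lay between -0.03 and 0.00.

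*Hamp* was not called at any time. The control pools were at 1320, 1860, 861, 1390 and 2070 CPM at 12, 24, 48, 72 and 96 h, and the LKO pools at 2050, 1420, 2240, 1120 and 661 CPM. Of these, 2 control and 3 LKO pools lay above all 4 mice of their genotype at 0 h, and none lay below. The log2 fold changes against 0 h were 1.11 at 12 h (SE 0.56, adjusted p = 0.1317), 1.00 at 24 h (SE 0.56, adjusted p = 0.1935) and 0.97 at 48 h (SE 0.57, adjusted p = 0.2479). At 72 h and 96 h they were 0.62 and 0.69.

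*Hamp2* fell at 12 h and 24 h. The control pools were at 4.74, 0.787, 0.861, 3.99 and 38.7 CPM and the LKO pools at 7.86, 3.52, 19.0, 40.0 and 91.5 CPM. The first 4 control pools and the first 2 LKO pools lay below all 4 mice of their genotype at 0 h, and the LKO pool at 96 h lay above them. The log2 fold change was -2.34 at 12 h (SE 0.89, adjusted p = 0.04991) and -4.16 at 24 h (SE 1.03, adjusted p = 0.006626). The 12 h call was lost when any of 6 of the 8 mice at 0 h was left out, with RLE scaling (adjusted p = 0.05144) and with either genotype alone. Apart from the fit without control replicate 4, the log2 fold changes under these settings lay between -2.42 and -2.24. Without control replicate 4 the 12 h value was -1.74 (adjusted p = 0.05594). The 24 h call was lost when 1 genotype alone was used, at log2 fold changes of -4.87 (control) and -3.61 (LKO). At 48 h the log2 fold change over both genotypes was -2.27 (SE 0.88, adjusted p = 0.08146), not called by edgeR. It was called by DESeq2 (-2.38, adjusted p = 0.03424) and, in edgeR, without LKO replicate 1 (-2.53, adjusted p = 0.03584). Lowest of all was the control pool at 24 h, with 13 *Hamp2* reads beside 30735 *Hamp* reads, or 0.0423% of both (95% Wilson interval 0.0247% to 0.0723%). The LKO pool at 96 h had 1668 *Hamp2* reads beside 12064, or 12.1% (11.6% to 12.7%). These intervals cover counting error only.

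**Figure D2:**
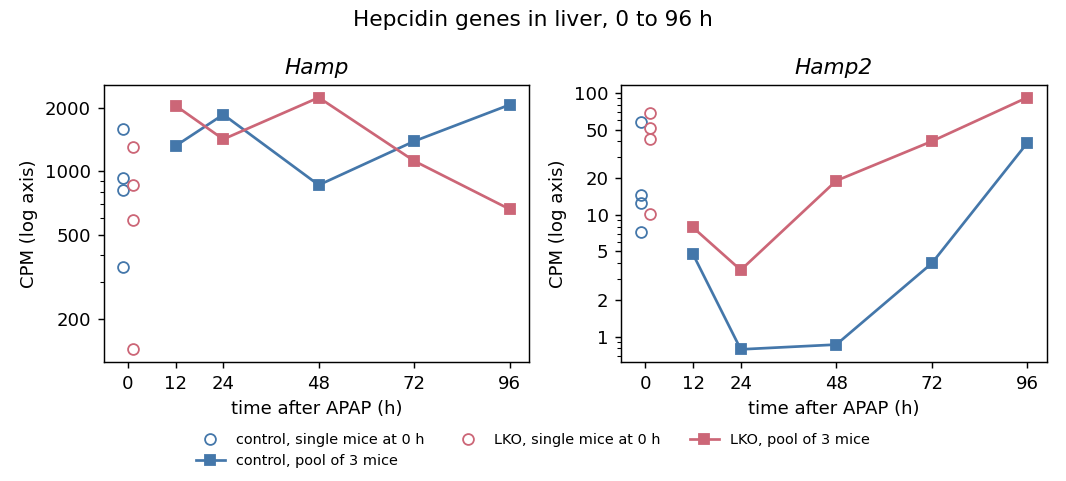
Levels of *Hamp* and *Hamp2* in CPM (log axes) by time after APAP, with open circles for single mice at 0 h and squares for pools of 3 mice, control in blue and LKO in red. *Hamp2* dips to 0.787 CPM in the control pool at 24 h, and the LKO squares lie above the control squares at all 5 times, whereas the *Hamp* lines cross.

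The BMP-SMAD target *Id1* rose more than any other gene of the list. *Id1* was at 76.5, 100, 59.8, 82.9 and 21.0 CPM in the control pools at 12 to 96 h and at 32.1, 52.0, 23.6, 13.3 and 6.85 CPM in the LKO pools, against 3.03 to 14.3 CPM in the 8 mice at 0 h. All 5 control pools and 4 of 5 LKO pools lay above the 4 mice of their genotype. Against 0 h *Id1* was higher by 2.83 on the log2 scale at 12 h (SE 0.38, adjusted p = 5.171e-05), 3.33 at 24 h (SE 0.37, adjusted p = 2.138e-05), 2.39 at 48 h (SE 0.38, adjusted p = 0.0004627) and 2.41 at 72 h (SE 0.39, adjusted p = 0.0003303). At 96 h it was 0.76 (SE 0.42, adjusted p = 0.4069). The 72 h call was lost with the LKO libraries alone, where the log2 fold change was 1.18 (adjusted p = 0.1909).

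*Smad7*, which encodes an inhibitory SMAD that limits the pathway, was called higher at 12 h and at none of the 4 later times. The pools were at 36.0, 25, 21.9, 19.8 and 13.2 CPM in controls and at 36.4, 18.2, 12.1, 13.3 and 13.3 CPM in LKO, against 8.25 to 18.0 CPM at 0 h. Both pools at 12 h and at 24 h lay above all 8 mice. Against 0 h its log2 fold change was 1.35 at 12 h (SE 0.22, adjusted p = 0.0002622) and 0.55 at 24 h (SE 0.23, adjusted p = 0.08898). *Bmp6*, which encodes the ligand, was at 8.25 and 6.57 CPM in the control and LKO pools at 12 h against 3.92 to 6.21 CPM at 0 h. Both lay above all 8 mice, but the log2 fold change of 0.52 was not called (SE 0.24, adjusted p = 0.09683). At 24 to 96 h the *Bmp6* pools ranged from 3.12 to 5.20 CPM, with log2 fold changes between -0.54 and -0.23, none of them called. Levels of *Bmp6* rested on 44 to 127 reads per pool.

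**Figure D3:**
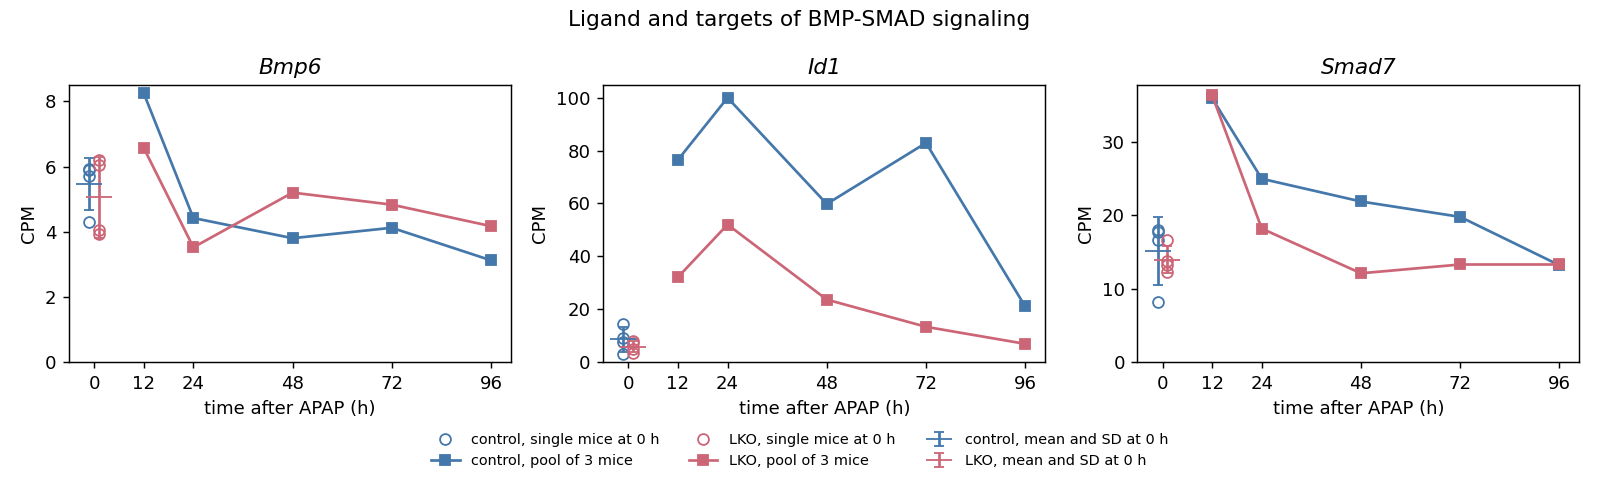
Levels of *Bmp6*, *Id1* and *Smad7* in CPM by time after APAP, with open circles for single mice at 0 h, bars for their mean and SD (n = 4 per genotype) and squares for pools of 3 mice, control in blue and LKO in red. *Id1* reaches 100 CPM in the control pool and 52.0 CPM in the LKO pool at 24 h, and the control squares lie above the LKO squares at all 5 times.

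Ferritin, the cytosolic iron store, rose early, in its heavy chain mRNA at 12 h and 24 h and in its light chain mRNA at 12 h. *Fth1* pools were at 4600, 4430, 2440, 1520 and 1340 CPM in controls and at 2760, 3350, 1560, 1240 and 1130 CPM in LKO, against 1100 to 1520 CPM in the 8 mice at 0 h. Both pools at 12, 24 and 48 h lay above all 8 mice. On the log2 scale the rise was 1.49 at 12 h (SE 0.18, adjusted p = 2.39e-05) and 1.54 at 24 h (SE 0.18, adjusted p = 3.24e-05). At 48 h, 0.58 (SE 0.19, adjusted p = 0.04475) stayed just under the 1.5-fold limit. It was called under 8 of 16 alternatives, among them DESeq2 (0.59), RLE scaling (0.59), scaling by library size alone (0.80, adjusted p = 0.006929) and the control libraries alone (0.90).

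*Ftl1* pools were at 8590, 5490, 3480, 4250 and 6010 CPM in controls and at 7350, 4600, 2800, 3720 and 4120 CPM in LKO, against 3210 to 5830 CPM at 0 h. It was called at 12 h alone among the times, at a log2 fold change of 0.87 (SE 0.20, adjusted p = 0.003806), with both pools above all 8 mice. With 1 pool against 4 mice of either genotype alone the log2 fold change of *Ftl1* was 0.96 (control) and 0.78 (LKO), and neither was called. The ratio of *Fth1* to *Ftl1* reads, 0.249 to 0.408 in the 8 mice at 0 h, was 0.806 in the control pool and 0.728 in the LKO pool at 24 h and was 0.223 and 0.274 at 96 h. This shift in ratio between the ferritin chains was not tested.

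Of the genes that move iron across membranes, *Slc40a1* fell early and *Tfrc* rose. *Slc40a1* pools were at 78.2, 91.2, 109, 127 and 148 CPM in controls and at 114, 105, 201, 193 and 166 CPM in LKO, against 100 to 253 CPM at 0 h. Only the first 3 control pools lay below all 4 mice of their genotype, and the LKO pools lay within theirs. On the log2 scale the change was -0.93 at 12 h (SE 0.31, adjusted p = 0.03034) and -0.92 at 24 h (SE 0.31, adjusted p = 0.03786), and both calls were lost with either genotype alone, where 1 pool stands against 4 mice and the log2 fold changes were -1.13 (control) and -0.74 (LKO) at 12 h and -0.96 and -0.88 at 24 h. At 24 h the call was also lost without control replicate 1, control replicate 4 or LKO replicate 3, and with scaling by library size alone (adjusted p of 0.2459 at most over all alternatives).

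*Tfrc* pools were at 59.9, 71, 48.3, 19.0 and 34.3 CPM in controls and at 29.3, 59.7, 32.1, 35.7 and 19.3 CPM in LKO, against 15.3 to 37.5 CPM at 0 h. The rise on the log2 scale was 0.94 at 12 h (SE 0.34, adjusted p = 0.04076) and 1.47 at 24 h (SE 0.33, adjusted p = 0.003426). At 24 h both pools lay above all 8 mice. At 12 h the LKO pool lay within them. Leaving out any of control replicates 1, 2 and 4 or LKO replicates 2 and 3 ended the call, at log2 fold changes of 0.84 to 0.91. In the LKO libraries alone, where 1 pool stands against the mice, the call was lost too and the 12 h log2 fold change was 0.33. The 24 h call was lost with the LKO libraries alone, at a log2 fold change of 1.32, and *Tfrc* was called at 48 h without LKO replicate 1 (0.92, adjusted p = 0.04134).

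*Trf* was called lower at 12 h. Its pools were at 10400, 13200, 20200, 21400 and 18200 CPM in controls and at 9080, 10400, 22600, 16100 and 16300 CPM in LKO, against 12900 to 17200 CPM at 0 h. Both 12 h pools lay below all 8 mice and both 48 h pools above them. The log2 fold change was -0.59 at 12 h (SE 0.18, adjusted p = 0.01956), just past the 1.5-fold limit and lost under 9 of 16 alternatives. At 48 h it was 0.53 (SE 0.17, adjusted p = 0.04084), under that limit, and it was called higher with scaling by library size alone (0.71, adjusted p = 0.002104).

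**Figure D4:**
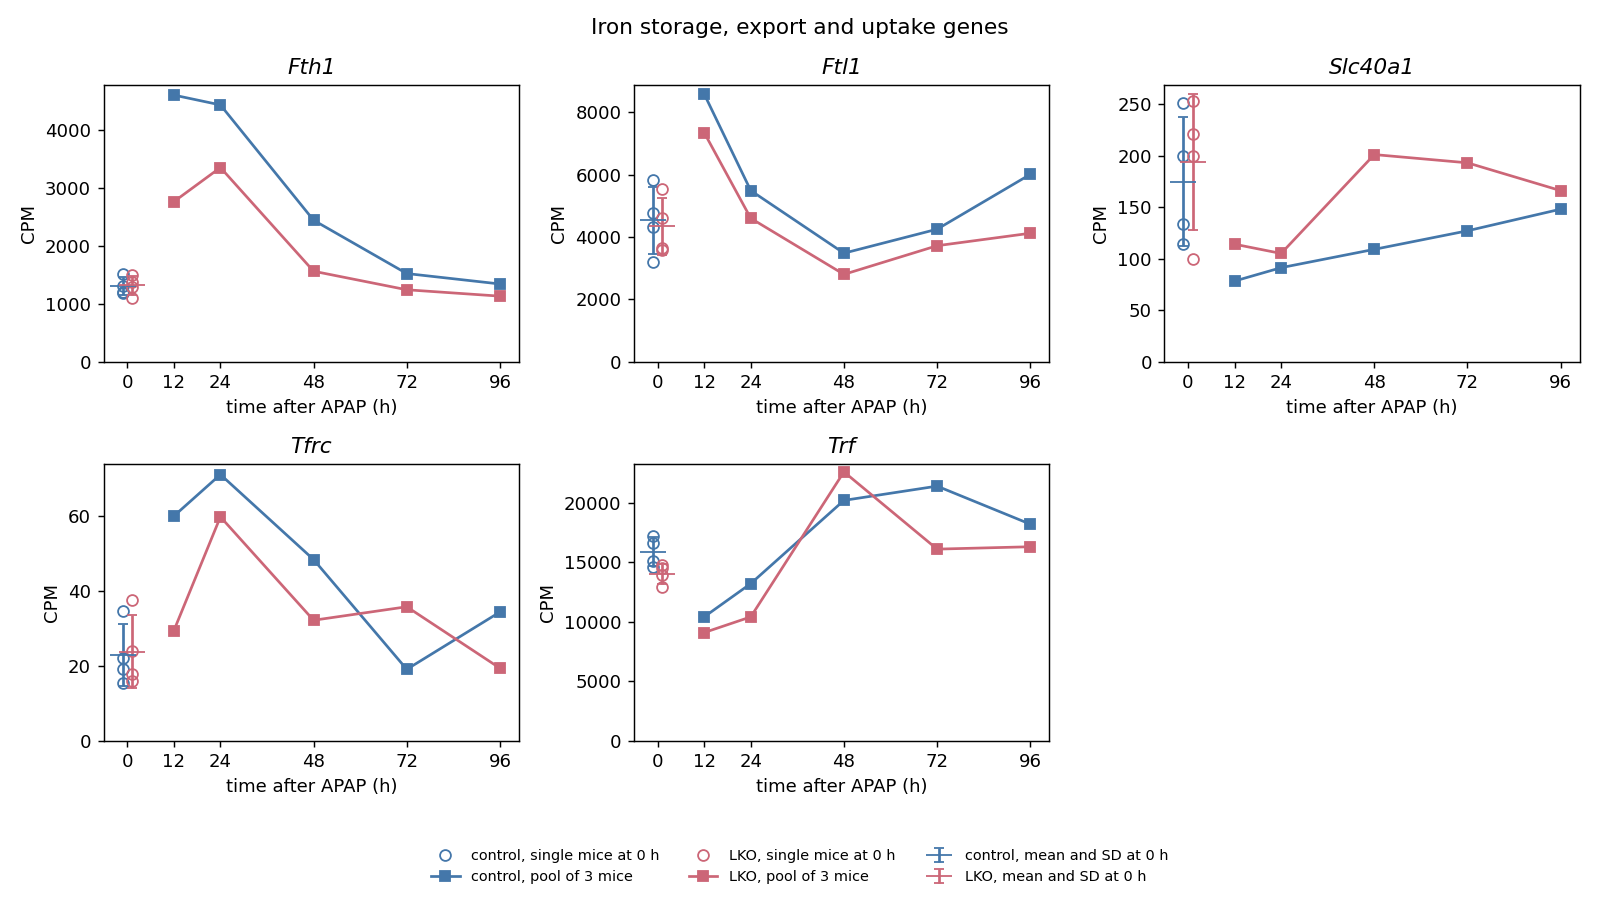
Levels of *Fth1*, *Ftl1*, *Slc40a1*, *Tfrc* and *Trf* in CPM by time after APAP, with open circles for single mice at 0 h, bars for their mean and SD (n = 4 per genotype) and squares for pools of 3 mice, control in blue and LKO in red. *Fth1* starts at 4600 and 2760 CPM at 12 h and returns to 1340 and 1130 CPM at 96 h, and the control squares lie above the LKO squares at each time for both ferritin genes.

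Of 19 other genes on the BMP-SMAD list, 3 rose and 1 fell at 12 h. The share of all genes called, 31%, 25.6%, 16.4%, 16.8% and 0.462% at the successive times, is the background for this and the next lists. The risers were *Id3* (log2 fold change 2.53, SE 0.33, adjusted p = 4.761e-05), a SMAD target like *Id1*, *Smad1* (1.15), which encodes a SMAD that BMP receptors phosphorylate, and *Id2* (1.11). *Tmprss6*, whose product is a membrane protease that lowers BMP signaling by cutting hemojuvelin, fell at 12 h (-0.68, SE 0.18, adjusted p = 0.006918), 24 h (-1.08), 48 h (-0.79) and 72 h (-0.66). At 24 h 3 rose (*Id3*, *Smad1* and *Fgl1*, a hepatocyte protein that antagonizes BMP signaling) and 2 fell (*Tmprss6* and *Hfe2*, which encodes hemojuvelin, a BMP co-receptor). At 48 h *Fgl1* rose and *Tmprss6* fell, and at 72 h *Id3* and *Fgl1* rose and *Tmprss6* fell. No gene of this list was called at 96 h.

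Of 8 genes on the interleukin-6 and STAT3 list, 4 rose at 12 h and none fell, with 31% of all genes called. They were *Socs3*, which encodes a feedback inhibitor of this pathway (1.71, SE 0.45, adjusted p = 0.008044), *Stat3* (1.61), *Fgg* (0.83) and *Il6st* (0.73). At 24 h *Fgg* alone of them was called and at 48 to 96 h none was. The median log2 fold change of the list was 0.78 at 12 h, 0.70 at 24 h and between -0.14 and 0.03 later.

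Of 14 further genes of iron uptake, storage and export, 13 were tested, and 4 were called at 12 h, when 31% of all genes were, so that this count is near the background. At 12 h *Lcn2* (log2 fold change 4.53, SE 0.81, adjusted p = 0.000583), whose product lipocalin-2 binds bacterial siderophores, and the iron importer gene *Slc39a14* (1.54) rose, and the ferrireductase gene *Steap3* (-1.31) and the importer gene *Slc39a8* (-0.90) fell. At 24 h *Lcn2* and *Slc39a14* rose and *Steap3* fell, at 48 h *Lcn2* and *Hp* rose, and at 72 h *Lcn2*, *Hp* and *Hpx* rose. Haptoglobin (*Hp*) and hemopexin (*Hpx*) bind free hemoglobin and heme in plasma. Of the 3 genes of iron sensing, *Fbxl5* fell at 12 h (-0.59) and *Ireb2* at 24 h (-0.64). None of 7 genes of mitochondrial iron and iron-sulfur cluster assembly was called at any of the 5 times.

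Markers of other liver cells were measured in the same libraries, in which 31% of all genes were called at 12 h and 25.6% at 24 h. Sums over the 8 Kupffer cell and macrophage markers were 117 to 192 CPM in controls and 125 to 296 CPM in LKO at 0 h, and 107 to 268 and 104 to 303 CPM in the pools. Of these markers *Cd68* rose and *Clec4f* fell at 12 h, and 2 rose and 3 fell at 24 h. The 8 sinusoidal endothelial markers, from the cells that make BMP6, summed to 257 to 332 CPM in controls and 293 to 337 CPM in LKO at 0 h, and 216 to 332 and 203 to 362 CPM in the pools, with 3 up and 2 down at 12 h and 1 up and 4 down at 24 h. The 6 neutrophil markers summed to 0.691 to 5.85 CPM at 0 h and 1.32 to 21.6 CPM in the pools. Only 2 of these 6 passed the filter. In the control pool at 48 h, *S100a8* (8.56 CPM) and *S100a9* (11.4 CPM) made up nearly all of 20.4 CPM. Among the erythroid and blood markers, the 4 globin genes were listed at 0 in every library, and *Alas2* fell from 12 h to 72 h. The part of these cells in the changes of the 10 genes was not tested.

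**Figure D5:**
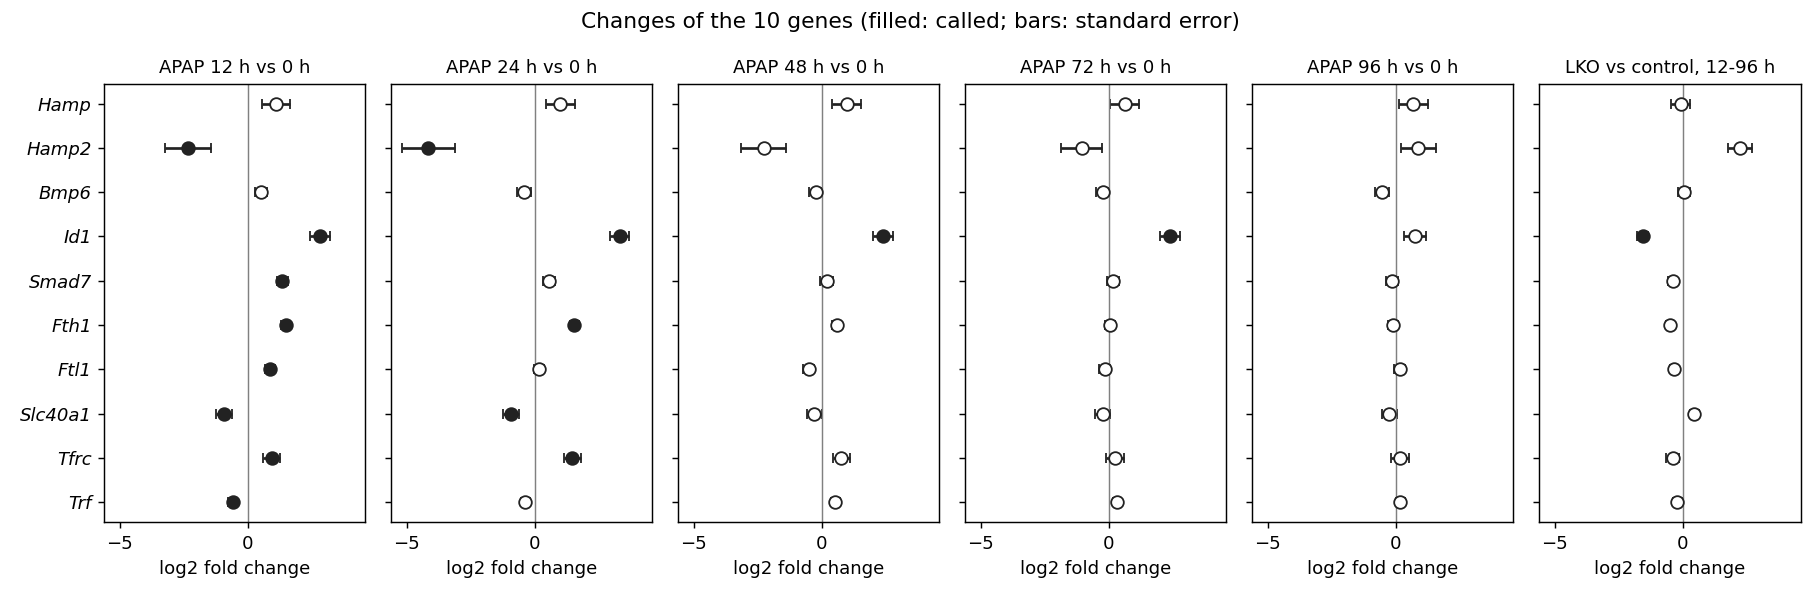
Log2 fold changes with standard errors (edgeR) of the 10 genes, from top to bottom in 6 panels, for each time after APAP against 0 h and for LKO against control over 12 to 96 h. Filled points are called genes, with 8, 5, 1, 1 and 0 of them in the panels of the successive times and 1 (*Id1*) in the last panel.

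To ask whether the genotypes differed over the course of injury and recovery, the 5 LKO pools were compared with the 5 control pools, with time as a block. Of the 10 genes 1 was called, *Id1*, against 74 of all 12782 genes tested (0.579%). *Id1* was lower in the pool labelled LKO at 5 of 5 times, by log2 differences of -1.25, -0.94, -1.34, -2.62 and -1.60 at 12, 24, 48, 72 and 96 h. The difference was largest at 72 h, at 13.3 CPM against 82.9 CPM, a 6.21-fold higher level in the control pool. Taken over the times, the log2 fold change was -1.57 (SE 0.23, adjusted p = 0.02655). It lost the call without the 12 h pools (-1.63, adjusted p = 0.07268), without the 48 h pools (-1.61, adjusted p = 0.07948) and with no time block (-1.43, adjusted p = 0.7641), and kept it without the 24, 72 or 96 h pools, by DESeq2 (-1.57, adjusted p = 3.25e-08) and under the other alternatives.

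*Hamp2* was higher in the LKO pool at 5 of 5 times, by log2 differences of 0.71, 2.00, 4.28, 3.28 and 1.24. At 48 h that was 19.0 CPM, or 336 reads, against 0.861 CPM, or 17 reads. The log2 fold change over the times was 2.25 (SE 0.47), above the threshold of the edgeR test at adjusted p = 0.06203. It was called by DESeq2 (adjusted p = 0.007637), with no filter on low counts (0.003287) and without the 96 h pools (0.03223). *Hamp* itself went both ways. It was 2.6-fold higher in the LKO pool at 48 h and 3.14-fold higher in the control pool at 96 h, with a log2 fold change over the times of -0.08 (SE 0.36, adjusted p = 0.9304).

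Ferritin mRNA was lower and ferroportin mRNA higher in the LKO pool at each time, without being called. *Fth1* differed by -0.74 to -0.25 on the log2 scale (-0.49 over the times, SE 0.16, adjusted p = 0.1739, and 0.04742 by DESeq2 at a fold under the limit) and *Ftl1* by -0.54 to -0.19 (-0.33, SE 0.16, adjusted p = 0.3131). *Slc40a1* differed by 0.17 to 0.89 (0.46, SE 0.16, adjusted p = 0.1792). At a single time, 3.54% to 9.92% of 14421 genes were at least 2-fold higher and 4.81% to 12.6% at least 2-fold lower in the LKO pool, and the ferritin and *Slc40a1* differences were all smaller than that. *Smad7* (-0.39, adjusted p = 0.2681), *Tfrc* (-0.39, 0.4341), *Trf* (-0.21, 0.5565) and *Bmp6* (0.06, 0.9196) were not called by edgeR either.

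Of the other lists, *Id3* was the 1 gene called between the genotypes after APAP, beside 0.579% of all genes. It was at 247, 174, 94.9, 138 and 95.0 CPM in the control pools and at 138, 132, 37.0, 37.6 and 42.1 CPM in the LKO pools, lower at 5 of 5 times. The log2 fold change was -1.15 (SE 0.21, adjusted p = 0.04581), and *Id3* at 0 h was at 27.1 to 45.0 CPM in controls and 18.9 to 49.9 CPM in LKO mice. Unlike that of *Id1*, the *Id3* call was not checked under the alternatives. The BMP-SMAD list as a whole had a median log2 fold change of 0.00, with 9 genes above and 9 below 0. The neutrophil marker sums at 12 to 96 h were 6.82, 8.96, 20.4, 14.3 and 5.81 CPM in the control pools and 7.92, 21.6, 5.82, 3.01 and 1.32 CPM in the LKO pools, higher in LKO at the first 2 times and lower at the last 3. The endothelial sums were 332, 216, 289, 235 and 239 CPM in the control pools and 362, 203, 264, 226 and 266 CPM in the LKO pools, higher in LKO at 12 h and 96 h. None of the 8 endothelial markers was called by edgeR, with 4 above and 4 below 0, from -0.71 for *Lyve1* and -0.56 for *Pecam1* to 0.43 for *Oit3* on the log2 scale. The hepatocyte sums were 96600, 102000, 86100, 126000 and 98600 CPM in the control pools and 58200, 76500, 93900, 94400 and 85900 CPM in the LKO pools, lower in LKO at 4 of 5 times. *Alb* made up most of each sum, at 76500 of 96600 CPM in the control pool at 12 h. *Cps1* was higher in the LKO pool at each time, at 6600 against 3960 CPM at 12 h. None of the 6 hepatocyte markers was called by edgeR, with 2 above and 4 below 0. The Kupffer cell and macrophage sums were 125, 107, 169, 257 and 268 CPM in the control pools and 104, 120, 235, 303 and 132 CPM in the LKO pools, higher in LKO at 3 of 5 times. The part of these cells in the *Id1* and *Id3* differences was not tested. The paper reports less liver injury in LKO than in control mice after APAP, and the part of injury was not tested either.

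Whether the genotype difference after APAP exceeded that at 0 h was tested in 1 model over the 18 libraries of the LKO cohort. None of the 10 genes was called, nor was any of all 13855 genes tested (0%, with 1307 at an unadjusted p under 0.05). DESeq2 called 0 of the 10 genes, and *Fth1* alone of them had an unadjusted edgeR p under 0.05. The difference of differences was -1.0 for *Id1* (SE 0.48, adjusted p = 0.5391), 1.35 for *Hamp2* (SE 0.91, adjusted p = 0.6449) and -0.49 for *Fth1* (SE 0.21, adjusted p = 0.4899). The *Id1* difference after APAP is therefore not shown to exceed the one at 0 h.

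Genes whose pattern was most like that of *Hamp* over the 18 libraries of the LKO cohort were *Nfe2* (r = 0.80), *Mpc1* (0.78), *Htatip2* (0.75), *Tmem50b* (0.75) and *Anapc5* (0.72), from 14421 genes ranked by Pearson r of log2 CPM. *Nfe2* was at 0.00 to 0.851 CPM there, close to the limit of 3 counts. Within the list, *Id1* came next to *Hamp* (r = 0.65, rank 38), then *Fth1* and *Smad7* (0.43 each), *Ftl1* (0.40), *Bmp6* (0.20), *Tfrc* (0.13), *Slc40a1* (0.06), *Trf* (-0.01) and *Hamp2* (-0.12). The 18 points share times and treatment, so these values are a description without a test.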

How the data were processed

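Liver RNA-seq of 24 libraries was analyzed. Per the study's methods, reads were trimmed with Trimmomatic, and the submitters' processing notes name STAR and mm10. The authors deposited raw counts per gene, with no normalization, and the annotation version is not given in the sources used here. Each deposited file holds counts that disregard strand, which were used, and 2 stranded columns, which were not. Entries that name no gene, 18.7% to 39.9% of all entries in a library, were left out. Without strand, reads of overlapping antisense genes cannot be told apart.

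Counts were tested in R 4.3.3 with the quasi-likelihood F-test of edgeR 4.0.16 (filterByExpr, TMM scaling, Benjamini-Hochberg adjustment over all genes of a comparison, 2-sided). A gene was called where adjusted p was under 0.05 with a fold change of 1.5 or more, and SE is the log2 fold change over the square root of F. CPM use TMM factors over all 24 libraries, log2 CPM a prior count of 2, and RPKM the union of exons in GENCODE vM21, in which all 10 symbols were found. Promoters are from RefSeq GRCm38.p6 and had entries for 6 of the 10 genes. Nothing says that mice of a group came from separate litters or days, so p-values measure the spread between these libraries. The alternatives were DESeq2 1.42.0, RLE or library-size scaling, other filters, no fold limit, a changed block or set of libraries, and fits that dropped 1 mouse or 1 time. The named genes are the 10 genes in each comparison, called genes of each other list and the 5 genes most like *Hamp*. The plan was up to 4 called genes per list and comparison, those with the largest change. Some more were named, among them markers that were not called. With the 10 genes there were 11 lists and 95 genes. The genes, lists and tests were chosen with earlier results of these data known. The route of the virus differs between the sources and is not given.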

Additional observations from a re-analysis of the deposited data

Results flagged for a closer look

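In a control or LKO group of 4 mice at 0 h, 3 of 20 sets of values held 1 mouse far from the other 3 by Dixon's test, which chance flags in about 1 of 20 sets. *Hamp2* in control replicate 4 was at 57.9 CPM, with the other controls at 7.16 to 14.4 CPM. *Smad7* in control replicate 3 was at 8.25 CPM, with the others at 16.6 to 18.0 CPM. *Bmp6* in the same mouse was at 4.29 CPM, with the others at 5.72 to 5.94 CPM, and this mouse also had the lowest *Hamp* and *Id1* of the controls and the fewest reads on genes, 12665686.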

How the results depend on the processing

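Over 1620 recomputed fold changes of the 10 genes, 1563 kept their side of the threshold, 41 lost a call and 16 gained one, and no called value changed sign. At 0 h and for both differences of effects, 0 of the 10 genes were called under every alternative. For LKO against control over 12 to 96 h, 2 were called by DESeq2 and 2 with no filter, 0 with no time block, and 0 to 2 when a time was left out, in place of 1. For APAP at 12 h, 5 to 8 were called when a mouse was left out, 4 in the control and 3 in the LKO libraries alone, in place of 8. At 24 h it was 3 and 2 in these libraries alone, in place of 5. At 48 h it was 3 by DESeq2, with library size alone or with no fold limit, 2 with RLE scaling, at least 10 counts in every library or the control libraries alone, and 1 to 3 when a mouse was left out, in place of 1. At 72 h it was 0 in the LKO libraries alone, in place of 1. The cause of these moves was not tested. Fits of 1 genotype alone, or without a mouse or a time, also hold fewer libraries.

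Over all genes, LKO against control at 12 to 96 h gave 74 calls, 606 by DESeq2, 337 with no filter, 42 with library size alone, 34 with at least 10 counts, 9 to 177 when a time was left out and 0 with no time block. HKO at 0 h gave 119, 331 by DESeq2, 255 with no filter, 31 with all 14 mice in the fit and 54 to 297 when a mouse was left out. APAP at 96 h gave 64, 338 by DESeq2, 41 with library size alone, 10 in either genotype alone and 18 to 83 when a mouse was left out. In LKO libraries alone the earlier times gave 1414, 1062, 280 and 375 calls, in place of 4299, 3549, 2274 and 2327. The control libraries alone gave 1748 at 24 h, and at least 10 counts in every library gave 1519 at 72 h. Where the main count was 0, DESeq2 gave 3 for LKO at 0 h, 21 for the difference between LKO and HKO effects and 39 for that between 12 to 96 h and 0 h.

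Replicate numbers mark no shared litter or day, and same-numbered mice correlated at -0.38 to 0.22 in their deviations. With the replicate block, 0 of the 10 genes were called at 0 h, and HKO gave 264 calls over all genes. Scaling by library size shifted the median of all genes by up to 0.20 (APAP at 48 h), and 0.14 at 24 h, 0.13 for LKO at 0 h and 0.11 at 72 h. With 1 pool per genotype and time, and *Bmp6* at 44 to 127 reads per pool, small changes were not detectable.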

Other observations

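The balance of the hepcidin genes moved over the time course. As a share of the reads of both, *Hamp2* was 0.358%, 0.0423%, 0.0999%, 0.286% and 1.83% in the control pools at 12, 24, 48, 72 and 96 h and 0.382%, 0.247%, 0.841%, 3.44% and 12.1% in the LKO pools. In the HKO cohort at 0 h it was 1.24% to 2.39% in controls and 0.451% to 3.30% in HKO mice. At 12 h the 95% Wilson intervals, 0.285% to 0.450% in control and 0.323% to 0.452% in LKO, overlapped, and at the 4 later times the LKO pool was higher without overlap. These intervals cover counting error only, and the share was not tested between genotypes.

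The feedback inhibitor gene *Socs3* separated the pools late, at 37.4, 26.6 and 31.5 CPM in controls and 7.75, 4.50 and 9.32 CPM in LKO at 48, 72 and 96 h. At 12 and 24 h it was at 101 and 43.9 CPM in controls and 82.2 and 51.5 CPM in LKO. *Lcn2* was at 229, 249, 485, 466 and 138 CPM in the control pools at 12 to 96 h and at 313, 581, 256, 39.6 and 11.6 CPM in the LKO pools, higher in LKO at the first 2 times and lower at the last 3. These genes were picked after their values were seen, and neither was called between the genotypes over 12 to 96 h by edgeR.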
